A study of Homo sapiens with 4 samples.

Results

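The peaks described here were called by the authors as binding regions of IGF2BP2 on the RNA of 4 genes, RUNX1, RUNX2, RUNX3 and CBFB, in Jurkat cells. Jurkat is an established human T-cell acute lymphoblastic leukemia (T-ALL) line, grown here without any treatment or genetic change named in the labels. In iRIP-seq, a form of RNA immunoprecipitation with UV crosslinking, IGF2BP2 is pulled down with an anti-IGF2BP2 antibody and the RNA attached to it is sequenced. The study made 2 IGF2BP2 iRIP libraries and 2 input libraries, and the values given here come from the peak lists of the 2 iRIP libraries, since the inputs were not analysed here. The labels do not say whether the 2 iRIP libraries came from separate cultures, so their spread may be technical. A peak was taken as a member when its Ensembl identifier was that of 1 of the 4 genes and its main region, the one with the largest share of its length, was coding sequence (CDS), UTR, noncoding exon or intron on the strand of the gene. By this rule the members were 305 of the 145715 peaks of replicate 1 and 397 of the 137934 peaks of replicate 2.

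RUNX1, RUNX2 and RUNX3 are transcription factors that share the runt domain, through which they bind DNA. CBFB is their common partner, which does not touch DNA itself and strengthens the binding of each RUNX protein. RUNX1 is needed for the formation of blood stem cells and for T-cell development and is mutated or fused in several leukemias, RUNX2 is best known as the master factor of bone formation, and RUNX3 acts in cytotoxic T cells. Each RUNX gene can be transcribed from a distal and from a proximal promoter. IGF2BP2 is an RNA-binding protein that reads N6-methyladenosine (m6A) and is known mainly for binding and stabilising mature mRNA.

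The 4 genes had very different numbers of peaks. RUNX1, on the minus strand of chromosome 21 (ENSG00000159216.19, RefSeq interval 34787801 to 35049302, GRCh38), had 287 sense peaks in replicate 1 and 374 in replicate 2, a mean of 330.5 ± 61.5 (SD, n = 2). CBFB (ENSG00000067955.15, plus strand of chromosome 16, 67029149 to 67101058) had 8 and 17, a mean of 12.5 ± 6.36 (SD, n = 2). RUNX2 (ENSG00000124813.23, plus strand of chromosome 6, 45328330 to 45551082) had 8 and 4, and RUNX3 (ENSG00000020633.19, minus strand of chromosome 1, 24899511 to 24965138) had 2 in each list. The order with RUNX1 first was the same in both lists by a wide margin, whereas CBFB and RUNX2 had equal numbers in replicate 1 and cannot be ordered. The RefSeq intervals of RUNX1 and RUNX2 are 261502 and 222753 nt long. The amount of each RNA was not analysed here, so no number of peaks is given per amount of RNA.

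The height of a peak is given by the authors in tags, per 50 nt of the peak, and is not adjusted for depth. The lowest height is 4 tags in the list of replicate 1 and 5 tags in that of replicate 2, where 74.3% and 62.6% of all peaks have it, and the depth of the libraries is unknown. As a check of the cell line, 7 of 8 T-lineage marker genes (CD3D, CD3E, CD3G, CD247, LCK, ZAP70 and TCF7, not CD28) had a sense peak in both lists, against 41.6% of the protein-coding genes of the RefSeq table. Of the 4 B-lineage markers only PAX5 did, with 5 peaks of at most 6 tags in each list, and of the 4 myeloid markers only CSF1R, with 1 peak of 4 and 6 tags. No peak was named for the erythroid genes HBB and HBA1, and their intervals held none in either list.

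By the lower height of each pair, the highest peaks that both replicates shared in RUNX1 lay in its coding sequence. It had 21 exonic peaks in replicate 1 (6 in CDS, 5 in the 5′ UTR, 4 in the 3′ UTR and 6 in noncoding exons) and 20 in replicate 2 (8, 3, 5 and 4). A peak is called recurring here when the other list has an overlapping peak on the same strand. Recurring peaks were 10 of the 21 and 9 of the 20, or 47.6% and 45.0% (95% Wilson intervals 28.3% to 67.6% and 25.8% to 65.8%). Over the exonic sense peaks of all genes, 38.1% of replicate 1 and 30.3% of replicate 2 recurred, and each share lies inside the RUNX1 interval of its list. The first RUNX1 peak by that lower height lay wholly in CDS at chr21:34799300-34799450, with heights of 13.7 and 22 tags in replicates 1 and 2. The CDS next to the 3′ UTR held those that followed. Replicate 1 had peaks at chr21:34792350-34792450 (10 tags) and chr21:34792500-34792650 (9.67 tags), and replicate 2 had a single longer peak across both, chr21:34792400-34792650, with 13 tags. Further upstream, a CDS peak at chr21:34880650-34880700 had 4 and 11 tags. Another at chr21:34892900-34892950, which runs into an intron, had 5 and 7 tags.

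In the 3′ UTR, 2 peaks had the same position in both lists, chr21:34789200-34789250 with 4 and 6 tags and chr21:34790850-34790900 with 4 and 5 tags. Another peak classed as 3′ UTR, chr21:34821450-34821550, lay 228 kb from the 5′ end of the RefSeq interval and had 6 and 7 tags. A noncoding exon peak at chr21:34833250-34833350 in replicate 1 had 7 tags against 6 tags for its partner in replicate 2. At the distal 5′ end of the gene, a 5′ UTR peak was listed at chr21:35048900-35048950 with 4 and 10 tags. Another nearby, chr21:35049150-35049200, reached 13 tags and was listed in replicate 2 only. The 5′ UTR next to the proximal start was listed differently in the 2 libraries. Replicate 1 had 4 peaks from 34887150 to 34888550, the longest of 351 nt with 6.71 tags, and replicate 2 had 1 peak, chr21:34887750-34887850, with 5.5 tags, and none of them overlapped. The other CDS and UTR peaks were each in a single list. Around the end of the CDS, replicate 1 had a 3′ UTR peak at chr21:34792100-34792150 (4 tags), while replicate 2 had 3′ UTR peaks at chr21:34791800-34791950 (8.33 tags) and chr21:34792050-34792100 (6 tags) and CDS peaks at chr21:34792150-34792200 (7 tags) and chr21:34792250-34792300 (8 tags). Near the proximal start, replicate 1 had a CDS peak at chr21:34886900-34886950 (8 tags) and replicate 2 had CDS peaks at chr21:34887050-34887100 (5 tags) and chr21:34889700-34889750 (6 tags). At the last of these positions replicate 1 had a peak of 5 tags on the opposite strand.

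Most RUNX1 peaks lay in introns, 266 of 287 in replicate 1 (92.7%, 95% Wilson interval 89.1% to 95.2%) and 354 of 374 in replicate 2 (94.7%, 91.9% to 96.5%), a mean of 93.7%. Over all sense peaks, introns held 69.2% and 62.4%. Nearly all of the RUNX1 intron peaks, 265 and 352, lay wholly in intron sequence. Their heights were low on both sides of the proximal transcription start, with medians of 5 and 6 tags downstream of the proximal start and 4.5 and 6 tags upstream of it. No RUNX1 peak of replicate 1 exceeded 13.7 tags and none of replicate 2 exceeded 23 tags, and 9 and 23 of all RUNX1 sense peaks reached 10 tags. With peaks of at least 10 tags only, introns held 7 of 9 and 18 of 23 RUNX1 peaks, or 78.0% (mean of the 2 lists). The intron share over all genes was not taken at that height.

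Most intron peaks lay within the RefSeq interval of RUNX1, and few lay beyond its 5′ end. The gene model behind the lists is longer than that interval, since peaks are given to RUNX1 as far upstream as 36001850, another 953 kb. To map the peaks, the gene was split at the 5′ end of the RefSeq interval (35049302) and at the proximal transcription start (34888699), a split chosen after seeing the map. Downstream of the proximal start, 101 kb long, there were 125 intron peaks in replicate 1 and 161 in replicate 2, or 12.4 and 16.0 per 10 kb. Between the proximal start and the RefSeq 5′ end, 161 kb long, there were 130 and 173, or 8.09 and 10.8 per 10 kb. Beyond the RefSeq 5′ end only 11 and 20 remained, or 0.115 and 0.210 per 10 kb, none of them shared by the lists. Over that same stretch the antisense peaks that the lists give to RUNX1 numbered 21 and 14, or 0.220 and 0.147 per 10 kb. Inside the RefSeq interval the lists gave RUNX1 1 and 0 antisense peaks downstream of the proximal start and 5 and 4 upstream of it. The RefSeq interval thus held 95.9% and 94.4% of the RUNX1 intron peaks.

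**Figure D1:**
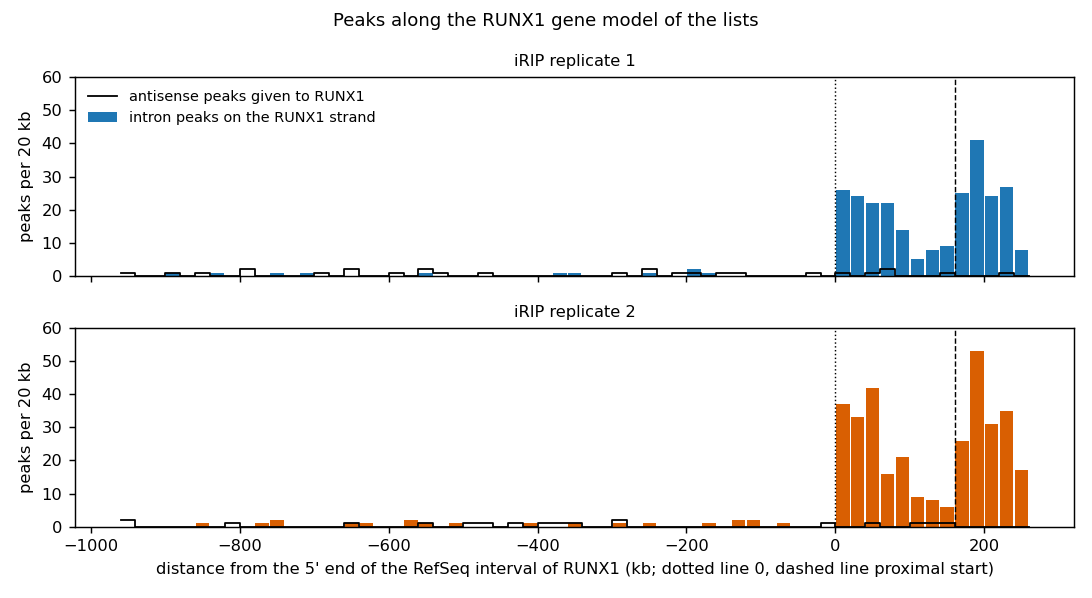
Number of peaks per 20 kb along the gene model that the lists use for RUNX1, against the distance from the 5′ end of its RefSeq interval (0, dotted line), for replicates 1 (top) and 2 (bottom). Bars are intron peaks on the RUNX1 strand and the black line is the number of antisense peaks given to RUNX1, and the dashed line marks the proximal start. The bars rise at 0 to 26 and 37 peaks per 20 kb, fall to 5 and 9 at 100 to 120 kb, and rise again past the proximal start to 41 and 53 at 180 to 200 kb.

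Inside the RefSeq interval the intron peaks formed the same 2 dense stretches in both replicates. The first 60 kb from the distal 5′ end held 72 and 112 intron peaks. The following 100 kb, up to the proximal start, held 58 and 60, and in replicate 1 its first 20 kb were still dense (22 peaks, against 16 in replicate 2). The fewest were found in replicate 1 at 100 to 120 kb (5 peaks) and in replicate 2 at 140 to 160 kb (6 peaks). The 80 kb past the proximal start held 117 and 145, with the most at 180 to 200 kb (41 and 53 peaks). The last full 20 kb step, from 240 to 260 kb, held 8 and 17. Neighbouring sense peaks inside the interval were separated by a median of 400 nt in replicate 1 and 350 nt in replicate 2. The longest stretch without a sense peak was 12100 nt in replicate 1 (34932400 to 34944500) and 11300 nt in replicate 2 (34922250 to 34933550), both inside the sparse part. These limits were also drawn after the map was seen.

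RefSeq lists 2 noncoding genes inside the RUNX1 interval, RUNX1-AS1 (34836313 to 34885052) and RUNX1-IT1 (35037925 to 35039426). The densest 20 kb step lies within RUNX1-AS1. Its interval held 84 and 96 RUNX1 intron peaks, or 17.2 and 19.7 per 10 kb, while 3 and 0 peaks of any identifier lay on the opposite strand there, peaks given to other identifiers than RUNX1 included. RUNX1-IT1 held 3 and 2 RUNX1 intron peaks. The table used gives no strand for these genes. The peaks counted lie on the RUNX1 strand. MIR802, a microRNA gene inside the long upstream model, had no peak in either list.

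**Figure D2:**
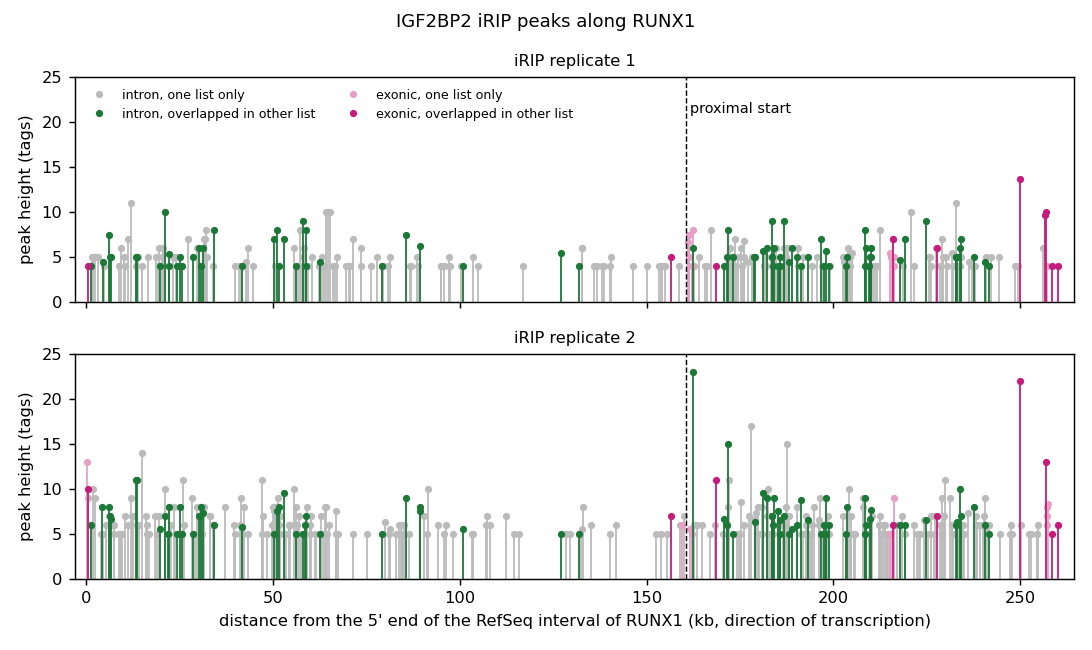
Every sense peak inside the RefSeq interval of RUNX1 by its distance from the 5′ end (kb, in the direction of transcription) and its height (tags), for replicates 1 and 2. Green marks intron peaks and dark pink exonic peaks that are overlapped by a peak of the other list, and grey and pale pink are peaks of 1 list only. Both panels show dense intron peaks near the distal end and past the proximal start (dashed line), with exonic peaks highest near the 3′ end, at 13.7 and 22 tags.

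A minority of the RUNX1 intron peaks recurred, a larger share than over all genes. In replicate 1, 81 of 266 intron peaks (30.5%, 95% Wilson interval 25.2% to 36.2%) recurred, and in replicate 2, 79 of 354 (22.3%, 18.3% to 26.9%). Over all sense intron peaks the shares were 7.11% and 7.12%. The sense peaks of replicate 2 covered 8.68% of the RefSeq interval of RUNX1 and those of replicate 1 covered 6.60%. Inside that interval, 31.8% of the intron peaks of replicate 1 and 23.7% of those of replicate 2 recurred. The recurring peaks followed the 2 dense stretches, where overlap is more frequent by construction. Sense peaks of replicates 2 and 1 covered 11.7% and 9.32% of the part downstream of the proximal start. Between that start and the RefSeq 5′ end they covered 6.76% and 4.89%. Of the 81 peaks of replicate 1, 28 lay in the first 60 kb, 7 in the next 100 kb, 44 in the 80 kb past the proximal start and 2 in the last step. No test was run on these shares, whose intervals cover counting error only, and the part that the amount of RUNX1 RNA has in them was not tested.

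The comparison with all genes depended on height and on the exons. Many intron peaks of other genes reach into an exon, and among the sense intron peaks of 8 tags or more 71.1% in replicate 1 and 63.1% in replicate 2 hold exon sequence. With those peaks kept, the RUNX1 share at 8 tags or more was the lower one in both lists, 50% (10 of 20) against 64.9% and 31.4% (22 of 70) against 39.6%. Among peaks wholly in introns, the shares that recurred were 30.2% for RUNX1 against 2.91% for all genes in replicate 1, and 22.2% against 3.22% in replicate 2. At the lowest listed height, the RUNX1 shares were 20.3% (24 of 118) and 14.0% (19 of 136), against 1.62% and 1.49% over all such peaks. Above that height and under 8 tags they were 36.2% and 25.7%, against 6.90% and 5.52%. At 8 tags or more, 10 of 20 RUNX1 peaks (50%, 29.9% to 70.1%) and 21 of 68 (30.9%, 21.2% to 42.6%) recurred, against 36.7% and 22.6%. At that height the share over all genes was inside the RUNX1 interval in both lists, so a difference was not detectable with these numbers of peaks.

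The recurring RUNX1 intron peaks were low in both lists. Their heights ran from 4 to 10 tags with a median of 5 in replicate 1 and from 5 to 23 tags with a median of 6.5 in replicate 2. The height in replicate 2 was the higher one for 61 of the 81 peaks, the lower one for 15 and the same for 5, and 35 of the 81 had the same start and end in both lists. None had 10 tags or more in both lists. By the smaller height of each pair, the first was chr21:34877550-34877600, past the proximal start, with 8 and 15 tags. Next came chr21:34998200-34998250 with 8 and 7.5 tags, chr21:34963650-34963750 with 7.5 and 9 tags and chr21:35043200-35043300 with 7.5 and 8 tags, all upstream of the proximal start. The last of these lay 6.05 kb from the distal 5′ end. The peak at chr21:35028150-35028200 had 10 and 7 tags. The peaks at chr21:34862400-34862450 and chr21:34865850-34865900, both in the densest step, had 9 and 7 tags each. Positions are those of replicate 1, and some of the partners in replicate 2 start or end 50 nt apart from them. These 7 intron peaks and the 3 CDS peaks above were taken as the 10 highest recurring peaks of RUNX1, although further intron peaks, such as chr21:34815150-34815200 with 7 and 7 tags, tie with the last of them.

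The highest intron peaks of each list were mostly not shared. Of 7 RUNX1 intron peaks with 10 tags or more in replicate 1, 1 recurred, and of 18 in replicate 2, 5 recurred. The share over all genes was not taken for 10 tags or more in 1 list. At 8 tags or more it was 64.9% and 39.6% of sense intron peaks, and 36.7% and 22.6% of those wholly in introns. Whether the low sharing is particular to RUNX1 cannot be told from so few peaks. The highest of replicate 2, chr21:34886800-34886850 with 23 tags, reaches into CDS and lies just past the proximal start, and it had 6 tags in replicate 1. The next of replicate 2, chr21:34871400-34871450 with 17 tags, had no partner in replicate 1. In replicate 1 the highest, chr21:34816550-34816650 and chr21:35037300-35037350 with 11 tags each, had none in replicate 2. A group of 3 neighbouring peaks with 10 tags each (chr21:34984000-34984050, chr21:34984550-34984600 and chr21:34985250-34985300) was listed in replicate 1 only.

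RUNX1 was among the genes with the most intron peaks in the lists. It ranked second, after CHST11, among 14265 identifiers with a sense intron peak in replicate 1 and among 13325 in replicate 2, where the median identifier had 2. CBFB ranked 2309 and 680, RUNX2 1170 and 2727, and RUNX3 8558 and 7818. The 5 named protein-coding genes nearest to RUNX1 in the log2 numbers of intron peaks of both lists were CHST11 (293 and 356 intron peaks), HDAC4 (212 and 302), GSE1 (221 and 277), PRKCA (148 and 204) and LDLRAD4 (128 and 184). HDAC4 is a histone deacetylase, PRKCA a protein kinase C and CHST11 a chondroitin sulfotransferase. Likeness here is over 2 libraries only. With all intron peaks of an identifier counted, those outside the RefSeq interval included, and divided by the length of that interval, RUNX1 had, per 10 kb, 10.2 and 13.5, CHST11 9.60 and 11.7, HDAC4 6.0 and 8.54, GSE1 4.36 and 5.47, PRKCA 2.91 and 4.01 and LDLRAD4 2.94 and 4.23. The share of intron peaks of replicate 1 that recurred was 30.8% in GSE1, 26.6% in CHST11, 25.5% in HDAC4, 21.1% in LDLRAD4 and 10.8% in PRKCA, and the RUNX1 share of 30.5% lay within the range of these 5 genes. The same held for replicate 2, with 22.3% in RUNX1 and 7.35% to 24.5% in the other genes.

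**Figure D3:**
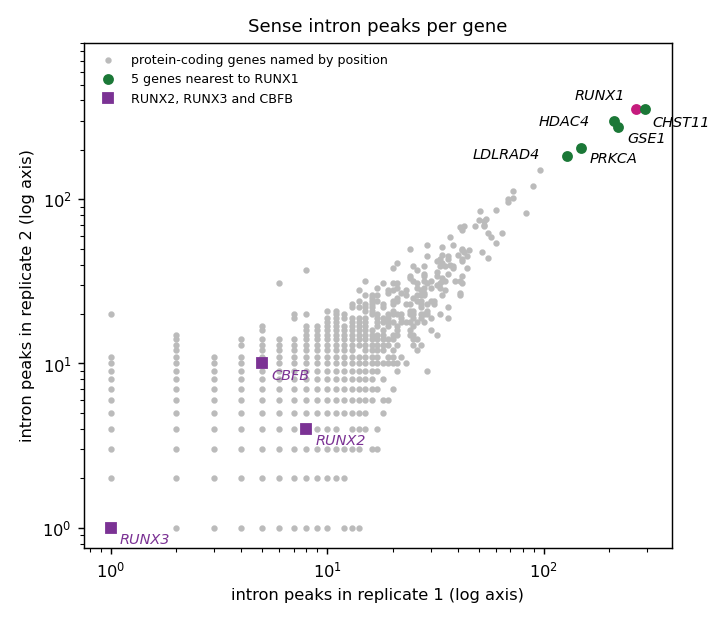
Number of sense intron peaks per protein-coding gene named by position in replicate 1 (horizontal) and replicate 2 (vertical), both on log axes, for genes with at least 1 in each list. RUNX1 (pink, 266 and 354) stands at the upper right with CHST11, HDAC4, GSE1, PRKCA and LDLRAD4 (green), while CBFB, RUNX2 and RUNX3 (purple squares) lie among the bulk of genes.

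The highest CBFB peaks lay in its exons, although its intron peaks were more numerous. Of its 8 sense peaks in replicate 1, 3 were exonic and 5 lay in introns, and of 17 in replicate 2, 7 were exonic and 10 lay in introns. The lists shared 2 CBFB peaks, both in exons, which is 25% of the peaks of replicate 1 and 11.8% of those of replicate 2, against 16.6% and 15.8% over all sense peaks. The higher shared peak, chr16:67036600-67036650, lay partly in CDS and mainly in a noncoding exon and had 12 and 7 tags. The other, in CDS near the 5′ end, was chr16:67029700-67029800 with 6 tags in replicate 1 and chr16:67029750-67029850 with 5 tags in replicate 2. In the 5′ UTR the lists had adjoining peaks that did not overlap, chr16:67029250-67029300 with 10 tags in replicate 1 and chr16:67029300-67029350 with 7 tags in replicate 2. The peak with 12 tags in replicate 2, chr16:67082200-67082250 in CDS, had no partner in replicate 1, which listed no CBFB peak past 67062700. CBFB intron peaks had 4 tags in replicate 1, the lowest listed height, and 5 or 6 tags in replicate 2.

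RUNX2 and RUNX3 had few peaks, all near the lowest height and none of them shared. Over all genes, 2.91% and 3.22% of peaks wholly in introns recurred in replicates 1 and 2, and 38.1% and 30.3% of exonic peaks. With so few peaks, the lack of shared ones is not a result about these genes. RUNX2 had only intron peaks, 8 in replicate 1 with 4 or 5 tags and 4 in replicate 2 with 5 tags each, and 2 and 1 of them lay outside its RefSeq interval. RUNX3 had 1 CDS peak and 1 intron peak in each list, at different positions. The CDS peak was chr1:24907250-24907300 with 5 tags in replicate 1 and chr1:24902450-24902500 with 5 tags in replicate 2, and the intron peaks had 4 and 6 tags. Whether these few low peaks stand above background was not tested.

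RefSeq promoter windows, from 250 bases before to 50 bases after a transcription start (GRCh38.p14), were given for the proximal start of RUNX1 and for 2 starts each of RUNX2 and RUNX3. No peak on either strand overlapped any of these 5 windows in either list, although the windows include the first bases of the transcripts. The windows at the distal starts of RUNX2 and RUNX3 share a tandem of the hexamer ACCACA, a form of the sequence that RUNX proteins bind. They are shown because these windows share a feature that the peaks did not define. Capitals mark ACCACA, and the stretches are chr6:45328339-45328368 on the plus strand and chr1:24965119-24965148 on the minus strand.
RUNX2 distal start: acaaacaACCACAgaACCACAagtgcggtg
RUNX3 distal start: tccctcaACCACAgaACCACAaggccaggc
A run of 17 bases within the stretch that both share starts at the base before the first ACCACA. It begins 15 bases after the RUNX2 start and 132 bases before the start of the RUNX3 window used, 24965010. The RefSeq interval of RUNX3 reaches further upstream, to 24965138, inside the stretch shown, so that distance holds for the start of this window only. On either strand the run occurs in 2 of the 35116 RefSeq windows, these. It was picked by reading the windows, so that number is a description. ACCACA or its complement occurs in 13.1% of all windows. Counted without overlap, the distal windows of RUNX2 and RUNX3 hold it 4 and 2 times, and the proximal windows of RUNX1, RUNX2 and RUNX3 do not hold it on either strand.

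The lists gave 27 and 18 antisense peaks to RUNX1, 2 and 9 to RUNX2, 4 and 0 to RUNX3 and 2 and 2 to CBFB. Thus RUNX2 in replicate 2 and RUNX3 in replicate 1 had more antisense than sense peaks. The antisense RUNX1 peaks had at most 6 and 8 tags. Only 2 of them, both upstream of the RefSeq interval, were in both lists, chr21:35700400-35700450 with 4 and 5 tags and chr21:36001800-36001850 with 6 and 5 tags. At the first of these positions replicate 2 also had a RUNX1 sense intron peak, of 8 tags. Over all antisense peaks, 0.654% and 0.821% recurred.

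Genes whose proteins work with RUNX and CBFB also carried peaks. Of a list of 22 partner genes, 21 had a sense peak in both replicates (95.5%), against 41.6% of the protein-coding genes of the RefSeq table, among which unnamed genes count as without peaks. The exception was KMT2A, a histone methyltransferase, for which no identifier could be named, although 30 and 55 sense-class peaks lay in its interval. All 8 corepressor genes had peaks in both lists. NCOR1 had 34 and 47 peaks, with a highest peak of 14 and 18 tags. The corepressor TLE3 had 22 and 21, whereas TLE1 had 4 and 4 and TLE4 had 5 and 6, and no TLE1 or TLE4 peak was shared. Over all sense peaks 16.6% and 15.8% recurred, so with so few peaks this says nothing of these 2 genes.

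The 9 genes for DNA-binding partners of RUNX1 in blood cells and their complex all had peaks. TCF12 and TCF3, which encode E proteins, had 50 and 55 and 39 and 51 peaks. FLI1 had 30 and 34, MYB 24 and 23 and ETS1 22 and 19, while GATA3 had 9 and 10. TAL1, a T-ALL oncogene, had 4 and 5 peaks and its partner LMO2 had 1 and 1, and neither gene had a peak that both lists shared. Both have too few peaks to set this against the 16.6% and 15.8% of all sense peaks that recurred. The coactivators EP300 and CREBBP had 24 and 23 and 26 and 37 peaks. In contrast to RUNX1, most peaks of EP300 (16 and 14), CREBBP (18 and 25) and NCOR1 (24 and 34) were exonic. TCF12 (42 and 43 intron peaks) and FLI1 (26 and 24) were, like RUNX1, mainly covered in introns. Of the 22 genes, 9 reached 10 tags in each of the lists, against 3.71% of protein-coding genes. The list was chosen with earlier results of these data known, and its genes were picked for their roles in blood cells, so its share is a description and says nothing of a preference for RUNX partners.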

How the data were processed

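IGF2BP2 iRIP-seq and input libraries of Jurkat cells were sequenced as 150 bp read pairs. Per the labels and the methods, the authors aligned reads to GRCh38 with TopHat2, kept uniquely mapped reads, called peaks in each library on its own by the ABLIRC strategy (500 simulations per gene, p value under 0.05) and discarded those that an input peak overlapped. In the lists, the authors' p-values of member peaks of 51 nt followed height and strand, not the gene. At 4 tags in replicate 1 they were 0.00755 for RUNX1 and RUNX3 (minus strand) and 0.00759 for RUNX2 and CBFB (plus strand). The highest listed values were 0.00759 and 0.00437 in replicates 1 and 2. How far the deposited lists rest on a simulation within each gene was not tested. The annotation version is not given in the sources used here. The height in the deposited lists is a signal in tags, not adjusted for depth. In all 4177 and 7345 peaks longer than 1 bin of 50 nt, height times bins was a whole number (within 0.01), so the height is a mean per bin. The authors' p-value was used only as a filter (under 0.001) in an alternative, and the length column was used as deposited, with values of 51 nt for 97.1% and 94.7% of peaks.

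Every peak was counted in its main region (ties went to the region listed first). Positions are printed as in the lists and were read as half-open. Recurrence required 1 bp on the same strand. Identifiers other than the members were named by position in a RefSeq table (GRCh38.p14): where CDS or UTR peaks existed, at least 80% of them had to fall within a single protein-coding gene (margin 1000 nt), and without them all peaks had to fall within a single gene, by which 14047 of 20428 were named. The members, the partner genes (EP300, CREBBP, PRMT1, KMT2A, TLE1, TLE3, TLE4, SIN3A, NCOR1, HDAC1, HDAC3, ETS1, FLI1, GATA3, MYB, TAL1, LMO2, LDB1, TCF3, TCF12, HIPK2 and 1 gene that is not reported here), the markers and the rules were chosen with earlier results of these data known. Named RUNX1 peaks are those in CDS or UTR, the 10 highest shared peaks by the lower height, and, after their values were seen, the highest peaks of each list and the shared noncoding exon peak. With 2 libraries of 1 condition no test was run, and the 95% Wilson intervals of shares describe counting error alone, as PCR copies are not independent molecules. The functions for overlap and naming were tested on simulated data. Python 3.11.15, numpy 2.4.6, pandas 2.3.3, scipy 1.17.1 and matplotlib 3.10.9 were used.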

Additional observations from a re-analysis of the deposited data

How the results depend on the processing

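Of 59 alternatives, 5 of them added after seeing the data, 31 left the value within a set limit, and 28 did not. For counts the limit was 1.5 times the count, and for recurrence the 95% Wilson interval of the main share. For the intron share and the share in the densest part it was the SD of the 2 lists. Leaving out 1 of 2 lists kept these 2 shares within that SD by construction. A minimum of 10 tags left a mean of 16 peaks for RUNX1, 1.5 for CBFB and 0 for RUNX2 and RUNX3, 9 partner genes with a peak in both lists, 78.0% of RUNX1 peaks in introns and 39.3% of RUNX1 intron peaks in the densest of 10 equal parts of the gene model (48.3% at all heights). A p-value under 0.001 left 94 RUNX1, 3 CBFB, 0 RUNX2 and 0 RUNX3 peaks, and a minimum of 5 tags left 2.5 for RUNX2. Splitting the gene model into 5 or 20 parts gave 80.4% and 25.4% in the densest part. The RUNX1 recurrence of 30.5% became 42.1% where touching peaks counted, 50% with centres at most 100 nt apart, 22.3% for replicate 2 against replicate 1, 37.4% with at least 5 tags in both lists, 0% with at least 10 in both, and 50% for peaks of at least 8 tags in replicate 1. Over all sense intron peaks, 7.11% became 9.02%, 10.3%, 19.6%, 50% and 64.9% under the same settings except the turned direction, and 7.36% with strand ignored and 2.91% for peaks wholly in introns. At 10 tags in both lists the RUNX1 share is thus the lower one, over 7 peaks. A minimum leaves fewer peaks by construction, and otherwise the cause was not tested. With 1 replicate left out, the peaks ranged from 287 to 374 for RUNX1, 8 to 17 for CBFB, 4 to 8 for RUNX2 and 2 to 2 for RUNX3, the intron share from 92.7% to 94.7% and the share in the densest of 10 parts from 46.9% to 49.6%. No paired analysis was possible because only the iRIP libraries were analysed here, which form 1 group. The unknown depth limits every comparison of heights and numbers between the libraries.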
